A study of Mus musculus with 36 samples.

Results

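The change of mock-treated dendritic cells between 1 and 3 h of culture was examined in 12 of the 36 libraries of an RNA sequencing study. The 6 mock libraries collected at 3 h were compared with the 6 collected at 1 h, with genotype as a blocking factor, in the deposited DESeq-normalized counts. Of 24127 genes in the table, 11672 had a mean normalized count of at least 10 over these 12 libraries and were tested. Of the others, 5912 had a lower mean with at least 1 read and 6543 had no read in the 12 libraries. G0s2, with a mean of 10.02, was the last gene inside this minimum, and Kctd19, with 9.9996, the first outside it.

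The study asked how dendritic cells with and without LGP2, an RNA-binding helicase of the RIG-I family encoded by Dhx58, respond to a RIG-I agonist, the poly-U/UC RNA of hepatitis C virus, labelled PAMP RNA. Bone marrow of C57BL/6 mice, either WT or labelled LGP2-/- (Dhx58-/-, here KO), was cultured with GM-CSF, and the cells were positively selected for the integrin CD11c. They were then transfected with PAMP RNA or served as mock controls, and were collected at 1, 3 or 6 h. Each genotype, treatment and time had 3 libraries from cells that the labels call biological triplicates, so the 4 mock groups used here are WT at 1 h, KO at 1 h, WT at 3 h and KO at 3 h. The labels describe the control cells both as mock treated and as untreated, so what the mock cells received besides handling, selection and plating is not settled by them. All cells had gone through the same selection and plating, the age and sex of the mice are not given, and no library was taken before plating. The labels do not say whether the 3 libraries of a group came from separate mice, so the p-values speak only for the spread among the libraries at hand.

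Dendritic cells grown with GM-CSF are a mixed population of dendritic cells and macrophages that sense microbes, take up antigen and respond quickly to handling, adhesion and nutrient supply. Genes induced through the hypoxia-inducible factor HIF include glycolytic enzymes, the glucose transporter Slc2a1 and the prolyl hydroxylases that mark HIF for degradation. Immediate-early genes such as Fosb are switched on within minutes of a stimulus and their short-lived transcripts decline quickly once it ends.

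The 12 libraries held 7399214 to 14255730 recovered reads, with a read in 14664 to 15417 genes. WT replicate 2 at 3 h was the deepest, and the other 11 libraries held at most 9667663 reads. The first principal component, with 59.6% of the variance, separated the times and the second, with 13.6%, the genotypes. Defining dendritic cell and macrophage markers were present at 1 h, with medians over 6 libraries of 3302 normalized counts for Itgax (CD11c), 4335 for Csf1r and 308 for Zbtb46, while Flt3 was at 5.52. Cd3e and Cd3g had no read at 1 h, and neither Pax5 nor Ncr1 had one. The 10 NK cell markers still summed to 94.7 to 175.7 at 1 h and 92.5 to 178.5 at 3 h. The 7 eosinophil markers summed to 511 to 575 at 1 h and 491 to 636 at 3 h. The 11 erythroid and megakaryocyte markers summed to 544 to 889 at 1 h and 600 to 943 at 3 h. The summed level of 9 T cell markers ran from 61.1 to 104 at 1 h and from 116 to 146 at 3 h. In that list Cd28 was tested and rose by 0.56 on the log2 scale. Cd8a, at a median of 7.44 at 1 h and 22.6 at 3 h, reached the minimum only through the 3 h libraries, so its change is given as these levels. The 8 plasmacytoid dendritic cell markers summed to 666 to 877 at 1 h and 984 to 1160 at 3 h, with Siglech at a median of 0 at 1 h and 0.861 at 3 h. Only 3 of them were tested, and 2 rose. Tcf4 went from a median of 198 at 1 h to 346 at 3 h and Spib from 131 to 279, while Bst2 was not called (0.0005). The 11 neutrophil markers summed to 4065 to 4815 at 1 h and 4842 to 5008 at 3 h. Most of this sum was Mmp8, which ran from 3918 to 4552 at 1 h and from 4699 to 4864 at 3 h. Of the 5 neutrophil markers tested, 1 rose, 1 fell and 3 were not called, with a median change of -0.24 on the log2 scale. The part of these marker changes in the results below was not tested. In bulk RNA, a change in the number of cells of one type and a change in RNA per cell cannot be told apart.

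Most tested genes differed between the times. Egln3, Apln and Ak4 rose furthest among genes with a mean of at least 50, and Fosb, Per2 and Thbs1 fell furthest. With limma on log2(normalized count + 1), 6352 genes (54.4% of those tested) were called at an adjusted p under 0.05. Of these, 3092 (26.5%) were higher at 3 h and 3260 (27.9%) lower, and 230 rose and 230 fell by over 2-fold. The median change over all tested genes was -0.0058. The 3 h libraries lay above the 1 h libraries without overlap in both genotypes for 2106 genes (18.0%), and below them for 2265 genes (19.4%). Changes are given below as 3 h minus 1 h in log2 units on this scale, which makes changes of scarce transcripts look smaller, and each count of a gene list is to be read against these shares.

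**Figure D1:**
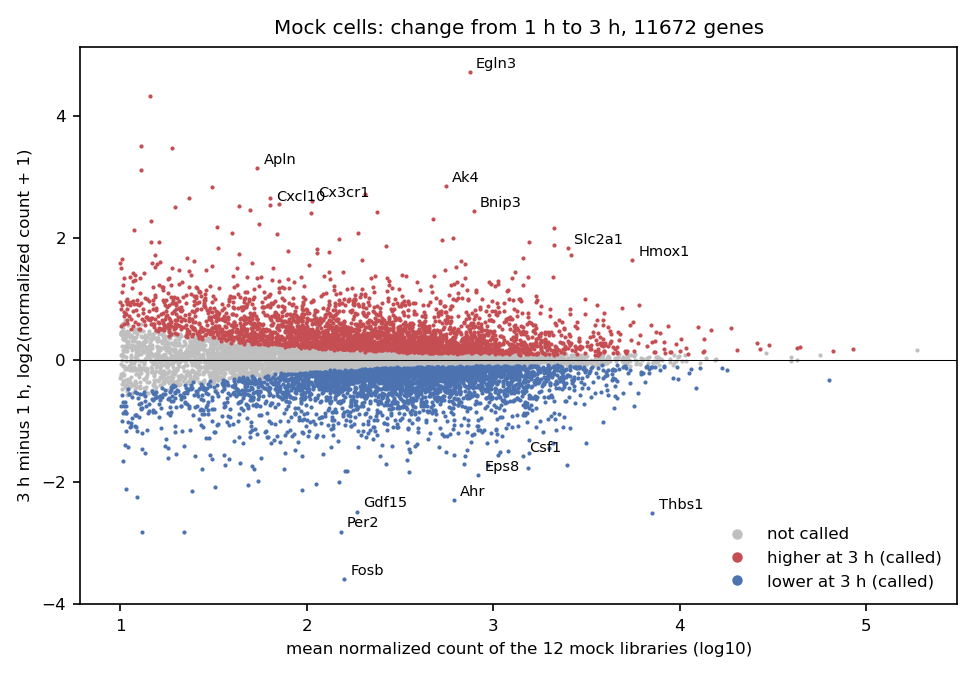
Change of each of 11672 tested genes from 1 to 3 h in mock cells (vertical axis, log2 units) against its mean normalized count over the 12 libraries (horizontal axis, log10). Red points are the 3092 genes called higher, blue the 3260 called lower and grey the genes not called; Egln3 stands highest at 4.72 and Fosb lowest at -3.59.

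The hypoxia-inducible genes formed the list with the highest median change. Of 31 genes in it 27 were tested, 24 rose and 2 fell, with a median change of 1.24, and 18 rose by over 2-fold. Adm, P4ha2 and Plod2 reached the minimum mean only through the 3 h libraries, where they are high. Of the other 24 genes 21 rose and 2 fell, with a median of 1.23, and 15 rose by over 2-fold. To show what these genes carry near their starts, promoter sequences of 3 of them are printed below. Each runs 5′ to 3′ on the gene's strand from 250 bases before to 50 after the start, taken from RefSeq on GRCm38.p6. Capitals mark ACGTG on either strand, the core of the hypoxia response element.
Egln3, chr12:54203825-54204124, minus strand: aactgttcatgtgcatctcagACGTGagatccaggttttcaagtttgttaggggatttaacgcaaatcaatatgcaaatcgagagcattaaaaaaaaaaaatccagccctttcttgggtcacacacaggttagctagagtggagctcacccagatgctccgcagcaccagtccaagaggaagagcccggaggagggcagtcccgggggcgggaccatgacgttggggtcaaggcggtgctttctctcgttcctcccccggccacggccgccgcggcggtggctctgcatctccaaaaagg
Ankrd37, chr8:45999801-46000100, minus strand: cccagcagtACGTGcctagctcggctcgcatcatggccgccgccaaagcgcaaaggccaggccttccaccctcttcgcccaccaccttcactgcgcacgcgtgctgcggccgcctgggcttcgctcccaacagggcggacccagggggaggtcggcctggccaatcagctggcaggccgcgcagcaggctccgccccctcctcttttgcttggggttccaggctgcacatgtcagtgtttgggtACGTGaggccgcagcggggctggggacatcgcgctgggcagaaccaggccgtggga
Bnip3, chr7:138909457-138909756, minus strand: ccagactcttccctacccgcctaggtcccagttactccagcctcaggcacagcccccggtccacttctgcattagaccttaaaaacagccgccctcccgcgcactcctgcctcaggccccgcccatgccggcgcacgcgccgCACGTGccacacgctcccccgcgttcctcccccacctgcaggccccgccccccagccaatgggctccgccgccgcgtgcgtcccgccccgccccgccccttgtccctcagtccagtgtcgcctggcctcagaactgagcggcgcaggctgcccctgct
The Bnip3 match is the palindrome CACGTG, an E-box that holds ACGTG on both strands. Of 27025 genes with a promoter sequence, 21.8% held ACGTG, and of the 8860 tested genes matched by symbol 29.7% did. The motif was in 17 of the 21 tested hypoxia genes with a sequence (81.0%), in 16 of 25 genes of glycolysis (64.0%) and in 2 of 36 interferon-stimulated genes (5.56%). A gene with several starts was counted once if any of them held the motif. CACGTG was in 8.09% of all promoters and in 3 of the 21 hypoxia genes (14.3%). These genes were listed because of what is known of their control, so the matches describe the lists and not these libraries.

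Egln3, a HIF prolyl hydroxylase that is itself a HIF target, lies at chr12:54178981-54203860. In the WT mock libraries it stood at 60.0, 52.96 and 61.1 normalized counts at 1 h and at 977, 1544 and 1643 at 3 h. In the libraries labelled KO it stood at 42.2, 50.8 and 54.6 at 1 h and at 1545, 1427 and 1554 at 3 h. Every 3 h library was far above every 1 h library, and WT replicate 1 was the lowest of the 3 h libraries. The change was 4.72 ± 0.10 (SE; adjusted p = 7.92e-22), a 26.4-fold rise on the scale used. Ak4, a mitochondrial adenylate kinase, ran from 103 to 160 with a median of 136 at 1 h and from 865 to 1097 with a median of 985 at 3 h. Bnip3, a mitophagy receptor, ran from 231 to 261 at 1 h and from 1002 to 1520 at 3 h. Both groups of 6 were separate for these genes, and the changes were 2.85 ± 0.07 for Ak4 and 2.44 ± 0.07 for Bnip3. Ankrd37 changed by 2.73 and Ero1l, the oxidase of disulfide formation in the endoplasmic reticulum, by 2.16. Slc2a1, the glucose transporter GLUT1, rose from a median of 1089 (1035 to 1210) to 4023 (3398 to 4151), a change of 1.83 ± 0.05.

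Among secreted and matrix-modifying products in the list, Vegfa, an angiogenic growth factor, also rose. It went from 543 to 685 at 1 h to 1344 to 1702 at 3 h, a change of 1.25. Adm, the peptide hormone adrenomedullin, and P4ha2, a collagen prolyl hydroxylase, were close to the bottom of the measured range at 1 h. Both reached the minimum mean only through the 3 h libraries, so the filter itself favoured a rise in them. Adm had at most 2.58 normalized counts at 1 h and 19.9 to 33.8 at 3 h, and its change of 3.12 fell to 2.06 with a pseudocount of 5. P4ha2 had at most 5.78 at 1 h and 22.6 to 46.7 at 3 h. Apln, the peptide apelin, is outside the list and rose by 3.15, from 6.43 to 15.4 at 1 h to 59.2 to 114 at 3 h. The 2 list members that fell were Bhlhe40 (-0.32), a transcriptional repressor also tied to the clock, and Rora (-0.59), and Car9 was not called (0.09). WT replicate 1 at 3 h had the lowest 3 h value in 19 of the 24 genes that rose. Without that library the change of Egln3 was 4.85 and that of Slc2a1 was 1.88.

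Among 9 tested components of the HIF pathway, 2 rose and 4 fell, with a median of -0.11. Hif1a, which encodes the oxygen-regulated subunit, ran from 4996 to 5708 at 1 h and from 2476 to 2755 at 3 h. Its transcript was lower in all 3 h libraries than in any 1 h library, with a change of -1.01 ± 0.04 (adjusted p = 4.86e-18). Cited2, which competes with HIF for its coactivator, rose by 1.18 and Vhl, the ubiquitin ligase subunit that binds hydroxylated HIF, by 0.47.

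Genes of glycolysis and glycogen synthesis rose in the same interval. Of 26 tested, 20 rose and 2 fell, with a median of 0.44. Slc16a3, the lactate exporter MCT4, went from 1157 to 1313 at 1 h to 3453 to 4232 at 3 h, a change of 1.72 ± 0.05. Gys1, glycogen synthase, went from 194 to 244 to 763 to 914, a change of 1.97. Hk2, an inducible hexokinase, went from 771 to 980 to 1875 to 2100. The 6 libraries of each time did not overlap for any of these 3 genes. Among other members, the changes were 0.99 for Pfkl, 0.65 for Tpi1, 0.50 for Pkm, 0.45 for Ldha, 0.41 for Aldoa and 0.27 for Gapdh. The lactate and pyruvate transporter Slc16a1 (-0.63) and the phosphofructokinase Pfkp (-0.20) fell.

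**Figure D2:**
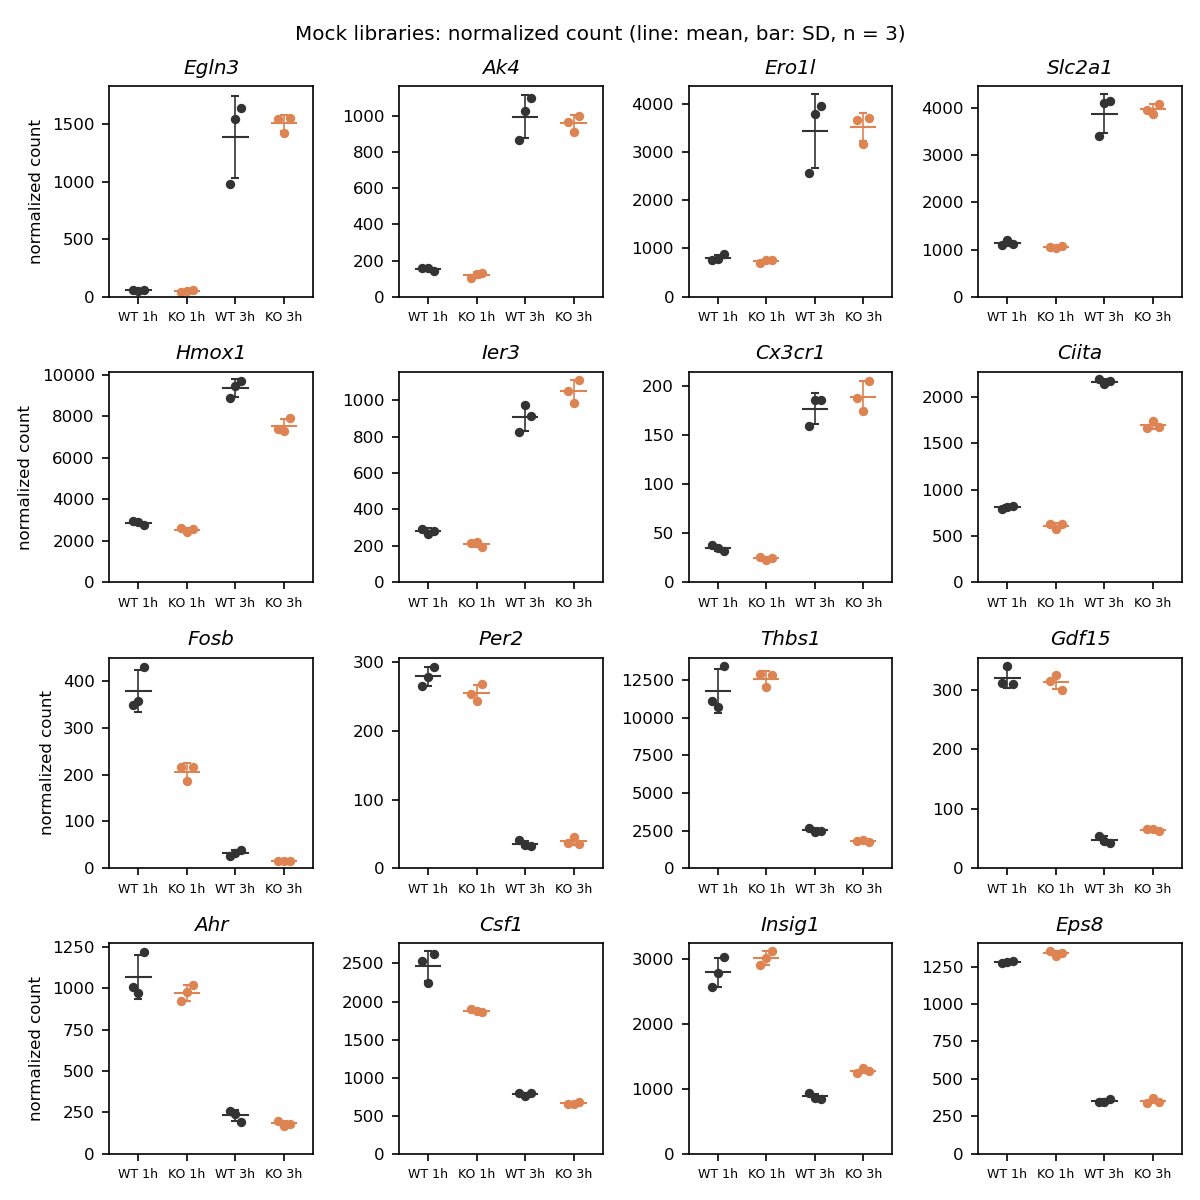
Normalized counts (vertical axes, each from 0) of 16 genes in each of the 12 mock libraries, by genotype and time, with the group mean (line) and SD (bar) of 3 libraries. The top 8 genes, from Egln3 to Ciita, were higher and the bottom 8, from Fosb to Eps8, lower in every 3 h library than in any 1 h library of the same genotype.

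Most immediate-early transcription factors were lower at 3 h, with exceptions in both the AP-1 and the stress-induced members. Of 31 tested, 18 fell and 10 rose, with a median of -0.33. Fosb, an AP-1 subunit, stood at 350, 358 and 430 in WT and 217, 187 and 217 in the libraries labelled KO at 1 h. At 3 h it stood at 26.1, 32.3 and 39.1 in WT and 14.5, 15.3 and 16.2 in the libraries labelled KO. It was thus lower in the libraries labelled KO at both times, while its change of -3.59 ± 0.10 did not pass the test of a genotype difference (-0.15, adjusted p = 0.82). Id1, an inhibitor of helix-loop-helix factors, fell from 43.0 to 61.6 at 1 h to 10.1 to 13.3 at 3 h (-2.09). Egr1 (-0.74), Fos (-0.49), Nr4a2 (-1.56), Klf4 (-1.20) and Myc (-0.98) also fell. Ier3, a stress-induced survival gene, rose from 194 to 295 to 826 to 1109, a change of 1.99 ± 0.08. Fosl1 (1.15), Btg2 (0.75), Jun (0.51) and Junb (0.39) rose too, and Atf3 was not called (-0.02).

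The phosphatases and Sprouty-related proteins that switch MAP kinase signalling off did not rise: of 14 tested, 9 fell and 5 were not called, with a median of -0.34. Dusp14, one of the 9, reached the minimum mean only through the 1 h libraries. The number called higher at 3 h was 0 in limma, also at an unadjusted p under 0.05 and by edgeR or DESeq2. Dusp1 fell by 0.90, Dusp6 by 1.11 and Spred2 by 1.43. Dusp18, a dual-specificity phosphatase outside the list, fell by 2.00. Targets and components of TGF-beta and BMP signalling had the lowest median of the lists drawn here, -0.63, with 12 of 15 lower and 1 higher. Thbs1, thrombospondin-1, a secreted activator of TGF-beta, ran from 10735 to 13420 normalized counts at 1 h and from 1713 to 2658 at 3 h. Its change was -2.52 ± 0.08 (adjusted p = 2.49e-19), and no 3 h library came near a 1 h library. Smad7, the feedback inhibitor, fell by 1.27, and Tgfbi (0.53) was the member that rose.

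Of 17 clock genes, 11 fell and 2 rose. Per2, a core repressor of the clock, fell from 244 to 294 at 1 h to 32.4 to 44.9 at 3 h, a change of -2.82 ± 0.09. Cry1, its partner, fell by 1.58 and Nr1d2 by 1.16, while Per1 fell by 0.25 and Arntl was not called (-0.11). Nfil3 (0.54) and Ciart (0.71) rose. In the glucocorticoid-induced list 9 of 13 fell, among them Sgk1 (-1.53), Klf9 (-0.89) and Tsc22d3 (-0.62), while the formyl peptide receptor Fpr1 rose by 1.88. Ahr, the aryl hydrocarbon receptor, fell from a median of 992 (921 to 1219) to 196 (170 to 261), a change of -2.30 ± 0.07. Gdf15, a stress-induced cytokine of the p53 list, fell from 300 to 339 to 42.9 to 65.6 (-2.49), and 12 of 23 p53 targets fell against 5 that rose.

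**Figure D3:**
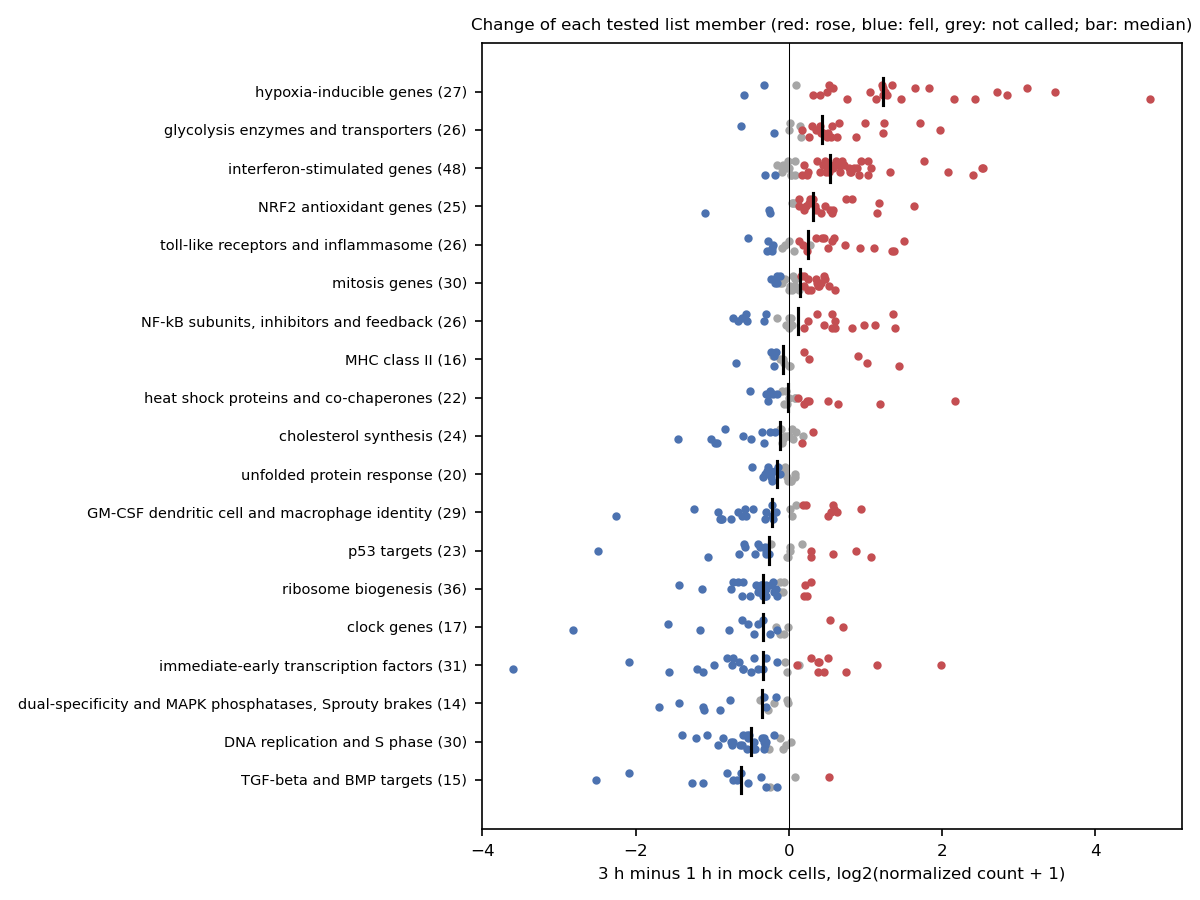
Change from 1 to 3 h in mock cells (horizontal axis, log2 units) of every tested member of 19 gene lists, with the number tested in brackets. Red points rose, blue points fell, grey points were not called and the black bar is the list's median, which runs from 1.24 for hypoxia-inducible genes to -0.63 for TGF-beta and BMP targets.

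Transcripts of DNA replication fell while many of mitosis rose. Of 30 replication genes 25 fell and 0 rose in limma, with a median of -0.49, and 0 rose at an unadjusted p under 0.05, by edgeR or by DESeq2. Cdt1, which loads the replicative helicase, fell from 320 to 412 at 1 h to 112 to 166 at 3 h (-1.40 ± 0.07), and Cdc6, its partner, fell by 1.21. The helicase subunits Mcm2 to Mcm7 fell by 0.35 to 0.75, whereas Pcna was not called (0.03). Of 30 mitosis genes 15 rose and 5 fell, with a median of 0.15 and a range from -0.24 (Kif23) to 0.60 (Cenpf). The G1 cyclins Ccnd2 (-1.32), Ccnd1 (-1.04) and Ccnd3 (-0.52) fell, and the inhibitor Cdkn1b, p27, rose from 369 to 470 to 716 to 815 (0.89). Of the 16 tested G1 cyclins and CDK inhibitors 7 fell, 5 rose and 4 were not called, with a median of 0.03. Ccng2, a FOXO target linked to cell-cycle exit, rose by 1.57, and Bcl6, another FOXO target, by 0.72. The FOXO and growth-factor-withdrawal list was divided: of 18 tested, 7 rose and 7 fell, with a median of -0.02. Growth-related transcripts were lower as well: 28 of 36 ribosome biogenesis genes fell and 4 rose (median -0.33). Among them Pprc1, a coactivator of nuclear genes for mitochondria, fell by 1.43 and Gnl3 by 1.13. The amino acid transporters Slc7a1 (-1.48) and Slc7a5 (-1.35) led the 12 of 24 integrated stress response genes that fell. Another 4 rose, Stbd1 (0.72), Trib3 (0.55), Slc3a2 (0.33) and Ppp1r15a (0.25), and the median of that list was -0.12.

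The antioxidant genes controlled by NRF2 rose in 19 of 25 cases and fell in 3, with a median of 0.32. Hmox1, heme oxygenase, went from 2432 to 2936 at 1 h to 7296 to 9722 at 3 h, a change of 1.64 ± 0.04. The quinone reductase Nqo1 changed by 1.18 and the malic enzyme Me1 by 1.15, while Osgin1 fell by 1.09. Slc40a1, the iron exporter ferroportin, rose by 1.62. Of 20 genes of the unfolded protein response 12 fell and 0 rose in limma, edgeR and DESeq2 (1 at an unadjusted p under 0.05, and 1 called with TMM scaling or with equal totals). Xbp1, a driver of that response, fell by 0.48 and Hspa5, the chaperone BiP, was not called (0.03). Heat shock genes were divided, 8 of 22 rising and 7 falling. Hspa1b (2.17) and Hspa1a (1.19), a pair of near-identical genes whose reads may be shared, were the members that rose furthest. Of 24 cholesterol synthesis genes 11 fell and 2 rose, with Insig1 at -1.45.

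Inflammatory genes had no common direction. Among 17 cytokines 7 rose and 6 fell. Il15 rose from 35.3 to 48.2 to 92.5 to 116 (1.29) and Il1b from 57.9 to 99.5 to 129 to 267 (1.21). Csf1, the macrophage growth factor, fell from 1868 to 2627 to 653 to 798 (-1.57), Tnfsf14 fell by 1.58, and Tnf was not called (0.15). Of 26 NF-kB genes 13 rose and 7 fell (median 0.12), with rises of Ptgs2 (1.39), Tnip3 (1.36), Birc3 (1.13) and Tnfaip3 (0.98), the feedback inhibitor A20. Irg1, the enzyme that makes itaconate, rose from 534 to 790 to 2092 to 2827 (1.94). Cx3cr1, the fractalkine receptor, rose from 23.2 to 37.6 to 159 to 206 (2.60 ± 0.11). Of 26 Toll-like receptor and inflammasome genes 15 rose and 6 fell, among the former Tlr1 (1.38) and the adaptor Ticam2 (1.35).

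Genes of dendritic cell and macrophage identity leaned lower, with 18 of 29 falling and 8 rising (median -0.22). Cd209a, a lectin of monocyte-derived dendritic cells, ran from 14.1 to 24.9 normalized counts at 1 h and from 2.86 to 4.42 at 3 h, and reached the minimum mean only through the 1 h libraries. Of the other 28 genes 17 fell and 8 rose. Kit fell by 1.24, Clec10a by 0.92, Irf4 by 0.90 and Cebpa by 0.87, while Maf rose by 0.94 and Csf1r by 0.57. In the MHC class II list, the transactivator Ciita rose from 577 to 825 to 1666 to 2187 (1.45 ± 0.04) and Rfx5 by 1.02. The structural genes H2-Aa (0.01), H2-Ab1 (-0.07) and H2-Eb1 (-0.07) were not called. That list was divided: 5 of its 16 tested members were higher at 3 h, 5 lower and 6 not called. Its median was -0.07 and its changes ran from -0.69 to 1.45. H2-DMb2 ran from 131 to 244 at 1 h and from 91.6 to 142 at 3 h. The costimulatory genes Cd80 (-1.41) and Cd86 (-0.75) fell and Cd40 rose by 0.73. The dendritic cell maturation list had no common direction: of 24 tested, 11 rose and 10 fell, with a median of 0.11. Tnfrsf4, a member that was not called, reached the minimum mean only through the 3 h libraries.

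Interferon-stimulated genes rose from a low base, with 35 of 48 higher and 2 lower (median 0.53). Ifit1 went from 26.3 to 38.5 at 1 h to 103 to 295 at 3 h (2.41 ± 0.15), Rsad2 from 48.8 to 83.6 to 151 to 280 (1.77), and Cxcl10, a chemokine, from 11.6 to 27.8 to 76.6 to 157 (2.54). In cells given PAMP RNA the same genes stood at 26158 to 34560, 34155 to 61374 and 20000 to 31178 at 3 h. Over the 35 genes the rise in mock cells was 0.314% to 16.5% of the mean PAMP RNA level at 3 h, with a median of 1.55%. The 16.5% belongs to Dhx58, the gene targeted in the KO. Ifnb1 itself had 3 reads over the 6 mock libraries at 1 h and 9 at 3 h, against 5806 in the 6 PAMP RNA libraries at 3 h.

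The genotypes were compared next. Dhx58 stood at 94.1, 103 and 83.6 in the WT libraries at 1 h and 119, 214 and 109 in those labelled KO. At 3 h it stood at 115, 142 and 138 in WT and 521, 377 and 455 in the libraries labelled KO. It was therefore higher, not lower, in the libraries labelled KO, and the labels do not say which part of the gene the deletion removes. Every direction given for KO below rests on those labels. In WT 5224 genes were called between 1 and 3 h (44.8%) and in the libraries labelled KO 5142 (44.1%). Of the genes called in both, 1881 were higher, 2023 lower and 14 opposite.

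The change itself differed between the genotypes for 82 genes (0.703%), 75 of them with a change more positive in KO (0.643%) and 7 more negative (0.06%). Dhx58 changed by 0.49 in WT and 1.66 in KO, a difference of 1.17 ± 0.23 (adjusted p = 0.0076). Klf2, a factor linked to quiescence, was at 164, 201 and 202 in WT and 156, 165 and 205 in KO at 1 h. At 3 h it was at 207, 158 and 182 in WT and 351, 367 and 322 in KO, so that the times overlapped in WT and not in the libraries labelled KO, with a difference of 1.04 ± 0.15. Socs3, the feedback inhibitor of cytokine receptors, fell by 1.23 in WT and by 0.23 in KO (difference 1.00 ± 0.14). Cxcl10 rose by 1.93 in WT and 3.14 in KO (difference 1.21 ± 0.27). The other differences of at least 1.00 at a mean of at least 50 were Mir5130 (1.42), 2310061J03Rik (1.20), Scand1 (1.02) and Rnaset2b (1.00), whose reads can be shared with its copy Rnaset2a.

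Cholesterol synthesis genes supplied 8 of the 75 genes with a more positive change in KO. Insig1 fell by 1.66 in WT and 1.23 in KO, and Hmgcs1 by 1.14 and 0.73. Of the immediate-early list 7 of 31 were among the 75, with Jund falling by 0.98 in WT and 0.23 in KO and Junb changing by 0.05 and 0.73. Thbs1 was one of the 7 genes with a more negative change in KO (-2.22 in WT, -2.82 in KO). In the hypoxia list 1 gene differed, Ndrg1 (0.46), and in the glycolysis list 0 did by limma, edgeR or DESeq2 (3 at an unadjusted p under 0.05). The count of 82 depended on single libraries: it was 331 without WT replicate 1 at 1 h. It was 45, 52 and 54 without KO replicates 1, 2 and 3 at 1 h, and 53 and 47 without WT replicates 2 and 3 at 3 h.

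**Figure D4:**
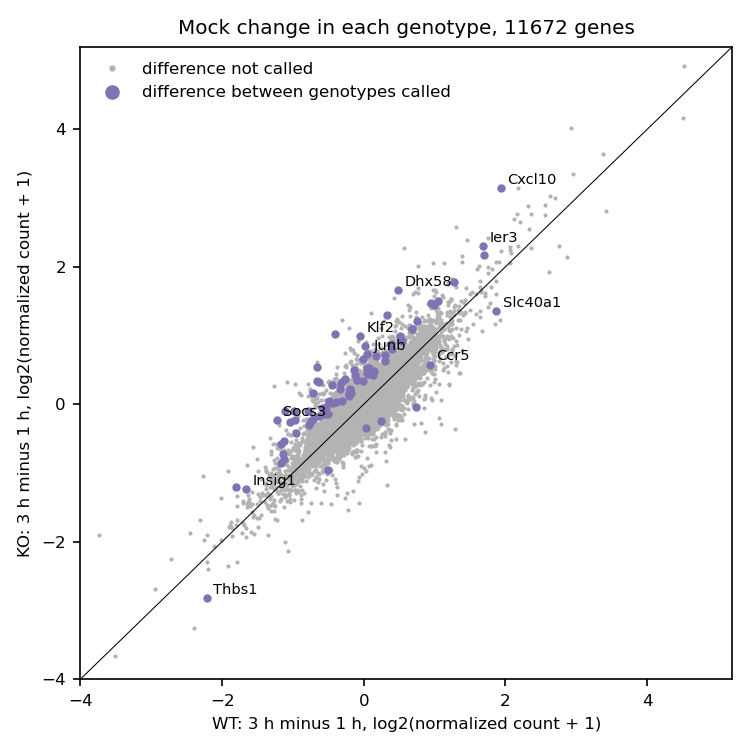
Change from 1 to 3 h in the libraries labelled KO (vertical axis) against that in WT (horizontal axis), in log2 units, for 11672 genes; the line marks equal change. Purple points are the 82 genes whose change differed between genotypes, 75 above the line and 7 below it.

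Whether these changes belong to mock cells was tested against the cells given PAMP RNA over the same interval. Most hypoxia and glycolysis genes had a lower change after PAMP RNA, and all 48 interferon-stimulated genes had a higher one (median difference 3.65). Of the 3260 genes that fell in mock cells, 1469 had no called difference on the deposited scale. Egln3 ran from 46.5 to 66.6 in the 6 PAMP RNA libraries at 1 h and from 28.4 to 55.7 at 3 h, all far below the 977 to 1643 of mock cells at 3 h. Its change was -0.56 with PAMP RNA, a difference from the mock change of -5.28 ± 0.14 (adjusted p = 1.54e-30). Over all genes tested the change differed for 5530 (47.4%). It was more positive after PAMP RNA for 2593 (22.2%) and more negative for 2937 (25.2%). That split depends on scaling: with equal totals per library it was 1449 against 6514, and the median difference over all genes moved from -0.03 to -0.27. With quantile normalization it was 2156 against 3832. The difference reuses the mock libraries of the comparison above, so the 2 are not independent.

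Of the 27 hypoxia genes 24 had a lower change with PAMP RNA, also with equal totals and with quantile normalization. The median change of the 27 with PAMP RNA was -0.01 against 1.24 in mock cells. The 27 include Adm (difference -3.035), P4ha2 (-2.84) and Plod2 (1.87). These reached the minimum mean only through the mock libraries at 3 h, so the filter bears on their differences too. Slc2a1 changed by 0.51 with PAMP RNA against 1.83 in mock cells, Ak4 by 0.83 against 2.85 and Vegfa by -0.21 against 1.25. The other 3 hypoxia genes, P4ha1 (difference 0.27), Plin2 (0.52) and Plod2 (1.87), had a higher change with PAMP RNA than in mock cells, and with equal totals or quantile normalization 2 hypoxia genes did. Zfp395, a HIF-induced zinc finger gene, moved in opposite directions: it rose by 1.65 in mock cells and changed by -1.51 with PAMP RNA. Of 26 glycolysis genes 20 had a lower change and 2 a higher one, Hk3 and Pfkp, with a median difference of -0.33 (-0.57 with equal totals and -0.67 with quantile normalization). Hif1a stood at 4431 to 4941 with PAMP RNA at 3 h, above every mock library at that time, with a change of -0.06. Cdkn1b (-0.11 against 0.89) and Arrdc3, an arrestin-related adaptor (0.29 against 2.32), also had a lower change with PAMP RNA than in mock cells.

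For other genes no difference was called on the deposited scale. Ccng2 rose by 1.57 in mock cells and changed by 1.53 with PAMP RNA (difference -0.04 ± 0.07, adjusted p = 0.61). Ahr (difference 0.11), Eps8, an actin regulator (0.02), Cry1 (0.06), Slc7a1 (0.06) and Cdt1 (0.13) had changes that did not pass the test of a difference either. With equal totals per library Ccng2 (-0.29, adjusted p = 0.000174), Eps8 (-0.22) and Slc7a1 (-0.19) did pass it, and with quantile normalization Ccng2 did (-0.25). Per2 fell further with PAMP RNA (-3.48) than without (-2.82), whereas Thbs1 fell less (-0.97 against -2.52), to 6011 to 6749 normalized counts. Ccnd2 fell in mock cells and moved the other way with PAMP RNA (1.48, difference 2.80), reaching 5220 to 6667 at 3 h against 749 to 1069. In total, of the 3092 genes that rose in mock cells, 1126 had a lower and 680 a higher change with PAMP RNA, and 1286 had no called difference. Of the genes that fell, 931 had a higher and 860 a lower change. These splits depend on scaling too: with equal totals 2032 of the risen genes had a lower and 476 a higher change, and 1762 of the fallen genes a lower and 489 a higher one. With quantile normalization the fallen genes split into 1058 lower and 733 higher. Among the genes that fell in mock cells and had the most opposed change with PAMP RNA were Serpina3g (-0.32 in mock, difference 4.08), Zbp1 (-0.31, 3.72), Slfn3 (-0.41, 3.23) and Arid5a (-1.20, 2.98). Gm4070 and Gvin1, with a difference of 3.89 each, hold identical values and count as 1 measurement.

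**Figure D5:**
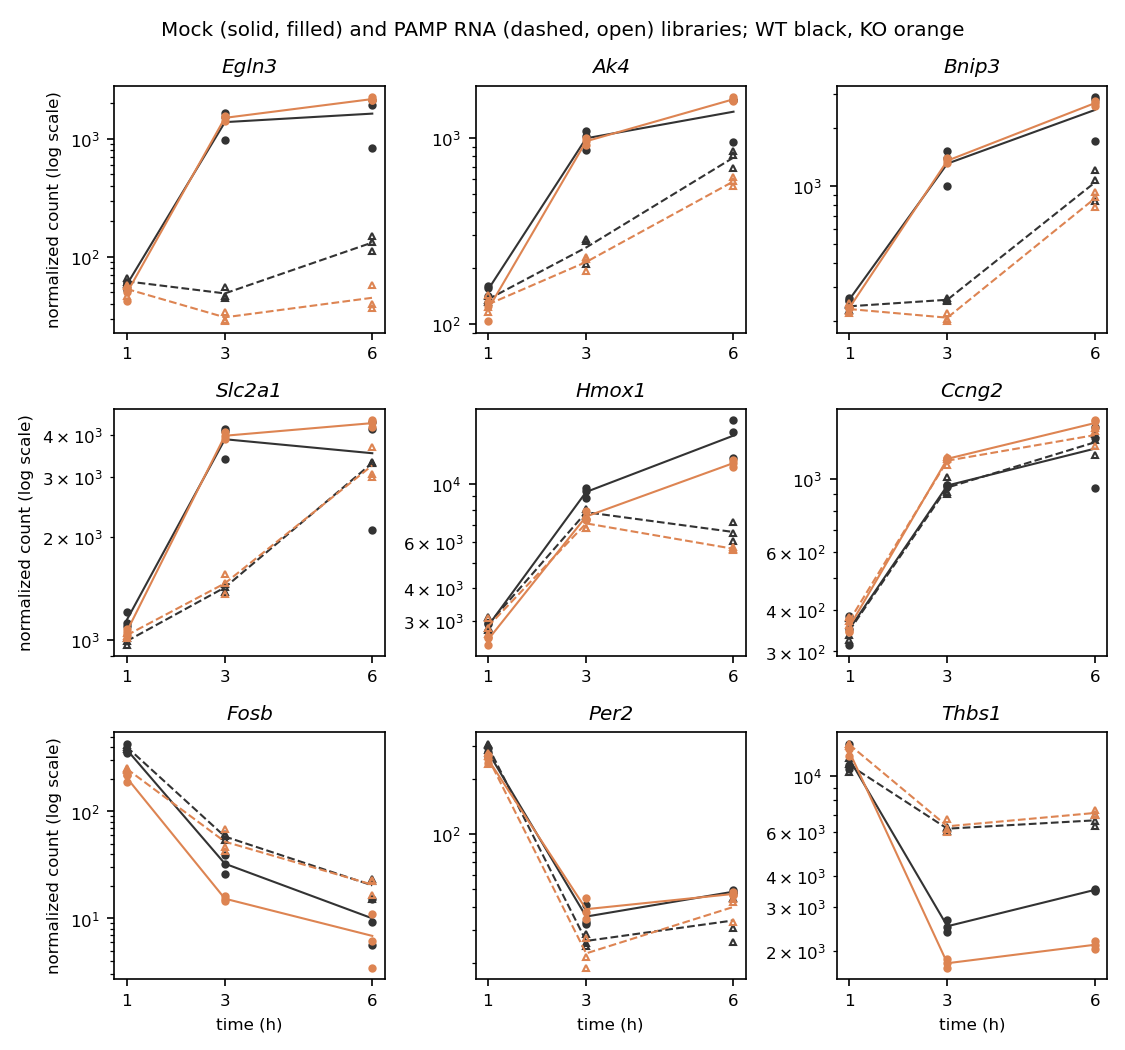
Normalized counts (log scale) of 9 genes at 1, 3 and 6 h (horizontal axis) in mock libraries (filled circles, solid line of means) and PAMP RNA libraries (open triangles, dashed line), WT in black and KO in orange, 3 libraries per point. The hypoxia genes Egln3, Ak4, Bnip3 and Slc2a1 separate at 3 h with mock above PAMP RNA, Ccng2 rises in both treatments from 1 to 3 h, and Thbs1 stands lower in mock cells at 3 h.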

How the data were processed

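RNA was sequenced as single reads from 36 libraries made with SMARTer and Nextera XT kits. Per the submitters' processing notes, TopHat, Cufflinks and DESeq2 were used with the mouse genome GRCm38 (mm10); versions, roles, annotation and filters were not given in the sources used here. What the authors deposited is a signal for each gene: DESeq-normalized counts, reads divided by a size factor per library. Dividing by each library's smallest step gave whole reads for 100% of values (tolerance 0.01 read), which served the count models. Counting of reads shared by near-identical or overlapping genes is not given, and strand was not marked.

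The 12 mock libraries at 1 and 3 h were tested on log2(normalized count + 1) for genes with a mean of at least 10, with limma 3.58.1 (R 4.3.3), a mean-variance trend and genotype as an additive block. Two-sided p-values were Benjamini-Hochberg adjusted over the 11672 genes, and calls were made below 0.05. The changes within genotypes and their difference came from a fit to 4 group means, and the PAMP RNA change minus the mock change from 8 group means over 24 libraries. Libraries of one group correlated at 0.991 or more (Pearson, log2 values), and the edgeR coefficient of biological variation was 5.39%. Pairs within a group differed by more than sampling noise (chi-square over its degrees of freedom 1.41 to 5.93), so none looked like a resequenced copy of another library. Whether libraries of a group came from the same pool of cells cannot be told from this. Alternatives were other pseudocounts, filters, scalings, limma settings, edgeR 4.0.16, DESeq2 1.42.0, a replicate block and leaving out each library.

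The comparison and the gene lists were chosen with earlier results of these data known. Genes were named by a rule: up to 15 rises and 15 falls with a mean of at least 50 and no overlap in either genotype, up to 4 called members per list, up to 8 per difference, Dhx58, and all hypoxia, cytokine and immediate-early members. List members outside the rule were named after their values were seen. Positions are from GENCODE on GRCm38.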

Additional observations from a re-analysis of the deposited data

Results flagged for a closer look

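Each value here comes from a direct test that a change differs between groups, and no explanation was tested. Between genotypes, 82 genes differed in their change from 1 to 3 h in mock cells. Among those with a mean of at least 50 normalized counts, the largest differences, as the KO change minus the WT change in log2 units, were 1.42 for Mir5130, 1.21 for Cxcl10, 1.20 for 2310061J03Rik, 1.17 for Dhx58, 1.04 for Klf2, 1.02 for Scand1, 1.00 for Rnaset2b and 1.00 for Socs3.

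Between treatments, 5530 genes differed in their change. The genes given here are the 8 with the largest difference among those that had changed in mock cells in the direction opposite to it, at a mean of at least 50, so genes that rose in both treatments are not among them. As the PAMP RNA change minus the mock change, the value was -5.28 for Egln3, -3.16 for Zfp395, 4.08 for Serpina3g, 3.89 for both Gm4070 and Gvin1, 3.72 for Zbp1, 3.23 for Slfn3 and 2.98 for Arid5a. Larger differences were found in interferon-stimulated genes that also rose in mock cells, such as 7.07 for Cmpk2 and 5.52 for Irf7.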

How the results depend on the processing

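The counts called for the mock change (6352), within WT (5224), within KO (5142) and for the treatment difference (5530) stayed within 1.5 times under every alternative run. Leaving out 1 library gave 6047 to 6439, 4449 to 5286, 4463 to 5412 and 5315 to 5546. The genotype difference was less stable: its 82 genes became 29 with no filter, 16 with the mean taken over all 36 libraries, 144 in one fit to all 36, and 45 to 331 without 1 library. Without limma's trend it was 0, with 1213 genes at an unadjusted p under 0.05, against 87 by edgeR and 81 by DESeq2. The cause was not tested.

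Libraries with the same replicate number did not deviate together (residual correlations of -0.12 to 0.03 over 6 pairs, against -0.10 to 0.15 over 12 others). This gave no sign of pairing by number, but so few pairs cannot exclude that such libraries share an origin. With a replicate block the counts were 6046, 4928, 4809, 5466 and, for the genotype difference, 48.

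Of 244 named genes called in the mock change, none reversed under the alternatives, and 5 lost their call under at least 1 of them: Ebi3, Il12b, Klf10, Klf2 and Lif. The change of Adm was 2.06 with a pseudocount of 5 and that of Actb was 0.10 with quantile normalization, against 3.12 and 0.22. Depth limits genes near 10 normalized counts, and 5912 genes with reads were below the minimum and not tested.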
